A study of Mus musculus with 17 samples.

Results

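The genes described here encode enzymes that break down the branched-chain amino acids leucine, isoleucine and valine. They were chosen by name: Bcat2, Bckdha, Bckdhb, Bckdk, Dbt, Ivd, Mccc1, Mccc2, Acadsb and Hibch, 10 of the 19938 genes measured. For each gene the probe set carrying its symbol alone was taken, and each of the 10 had 1 such probe set. Total RNA of skeletal muscle was hybridised from 17 wildtype male C57BL/6N mice, 5 to 6 months old, with 1 array per mouse. STZ,BEZ mice (n = 5) were injected at 10 to 16 weeks of age with streptozotocin, which kills pancreatic beta cells, at 65 mg/kg on 5 days, and from 2 weeks afterwards ate chow with 0.25% or 0.5% bezafibrate for 8 weeks. Bezafibrate is a lipid-lowering fibrate and an agonist of PPARs, the peroxisome proliferator-activated nuclear receptors. STZ,SD mice (n = 5) were given the same injections and ate standard chow. Con,SD mice (n = 7) were given mock injections of citrate buffer and standard chow. The labels do not say which mouse ate which strength of bezafibrate, and the study's methods differ from them, with a lower streptozotocin dose, only the higher strength and untreated controls. The model is one of insulin deficiency after chemical loss of beta cells. The muscle sampled was not given in the sources used here.

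Skeletal muscle starts the breakdown of branched-chain amino acids for much of the body. The mitochondrial aminotransferase BCAT2 moves their amino group to 2-oxoglutarate. The branched-chain 2-oxoacid dehydrogenase complex (BCKDH) then oxidises the resulting 2-oxoacids in an irreversible step. BCKDH consists of a decarboxylase (E1, with the subunits BCKDHA and BCKDHB), an acyltransferase core (E2, DBT) and a dihydrolipoamide dehydrogenase (E3, DLD) that it shares with the pyruvate and 2-oxoglutarate dehydrogenases. The kinase BCKDK phosphorylates BCKDHA and shuts the complex off, and the phosphatase PPM1K reverses this. After BCKDH the routes part. Isovaleryl-CoA dehydrogenase (IVD) and methylcrotonyl-CoA carboxylase (MCCC1 and MCCC2) serve leucine, the short/branched-chain acyl-CoA dehydrogenase (ACADSB) serves mainly isoleucine, and 3-hydroxyisobutyryl-CoA hydrolase (HIBCH) serves valine.

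Levels are the authors' RMA values on the log2 scale, differences are log2 differences ± SE from limma over all 17 arrays, and a gene was called when its Benjamini-Hochberg adjusted p over all 19938 genes was under 0.1. Muscle fibre markers were high on every array, with Acta1 between 13.98 and 14.09 and the most variable of the 10, Mb, between 11.84 and 13.38. Of the 10, Mb (-0.75 ± 0.16) and Pvalb (-0.18 ± 0.05) were lower in STZ,SD against Con,SD. Array 1 of Con,SD stood apart. Its mean level of 13 hepatocyte markers was 11.62, where STZ,BEZ arrays had 7.12 to 7.95, STZ,SD arrays 7.60 to 8.58 and the other Con,SD arrays 7.14 to 9.47, and its mean level of 8 testis markers was 8.67, against 5.11 to 5.83 on all others. With array 1 kept, 8 of the 13 hepatocyte markers were lower in STZ,BEZ against Con,SD (median -1.41), beside 8.45% of all genes. In STZ,SD against Con,SD 2 of the 13 were lower (median -0.86), beside 11.9% of all genes. All 13 differences were below 0 in both comparisons. The median of the mean hepatocyte levels was 7.60 in STZ,BEZ and 8.08 in STZ,SD, against 8.465 in Con,SD. Slow-fibre markers varied widely within groups, with mean levels of 8.65 to 10.44 in STZ,BEZ and 7.03 to 10.07 in STZ,SD, against 6.98 to 9.57 in Con,SD. Of 8 endothelial markers 4 rose in STZ,SD against Con,SD, where 13.9% of all genes rose. The mean level of the 8 was 9.001 to 9.09 in STZ,BEZ and 8.90 to 9.15 in STZ,SD, against 8.63 to 8.92 in Con,SD. Hepatocyte and slow-fibre levels entered alternative fits as covariates, and the part of these cell types in the results was otherwise not tested. In whole muscle, fewer cells of a type and less RNA per cell cannot be told apart.

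Insulin deficiency was addressed by setting STZ,SD against Con,SD. Of the 10 genes 1 rose, Acadsb, and 3 fell, Ivd, Mccc1 and Bckdk. Among all genes 25.8% were called, 13.9% higher and 11.9% lower. With every array kept, 1 member higher was near the share over all genes, and 3 members lower were above it. Only 1 member was lower without STZ,SD array 2, and only 1 without STZ,SD array 5. STZ,SD array 5 had the lowest STZ,SD value for every member except Hibch. Its mean level of muscle fibre markers, 13.24, was the lowest of all arrays. The medians were 13.39 in STZ,BEZ, 13.34 in STZ,SD and 13.44 in Con,SD. Why array 5 was low was not tested. The count of called members was 2 without STZ,SD array 2 and 5 without Con,SD array 1. The median difference of the members was -0.07, beside -0.01 over all genes. The called members belong to the branches after BCKDH and to its kinase, and the aminotransferase and the 3 catalytic subunits of BCKDH that were measured did not pass the test.

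**Figure D1:**
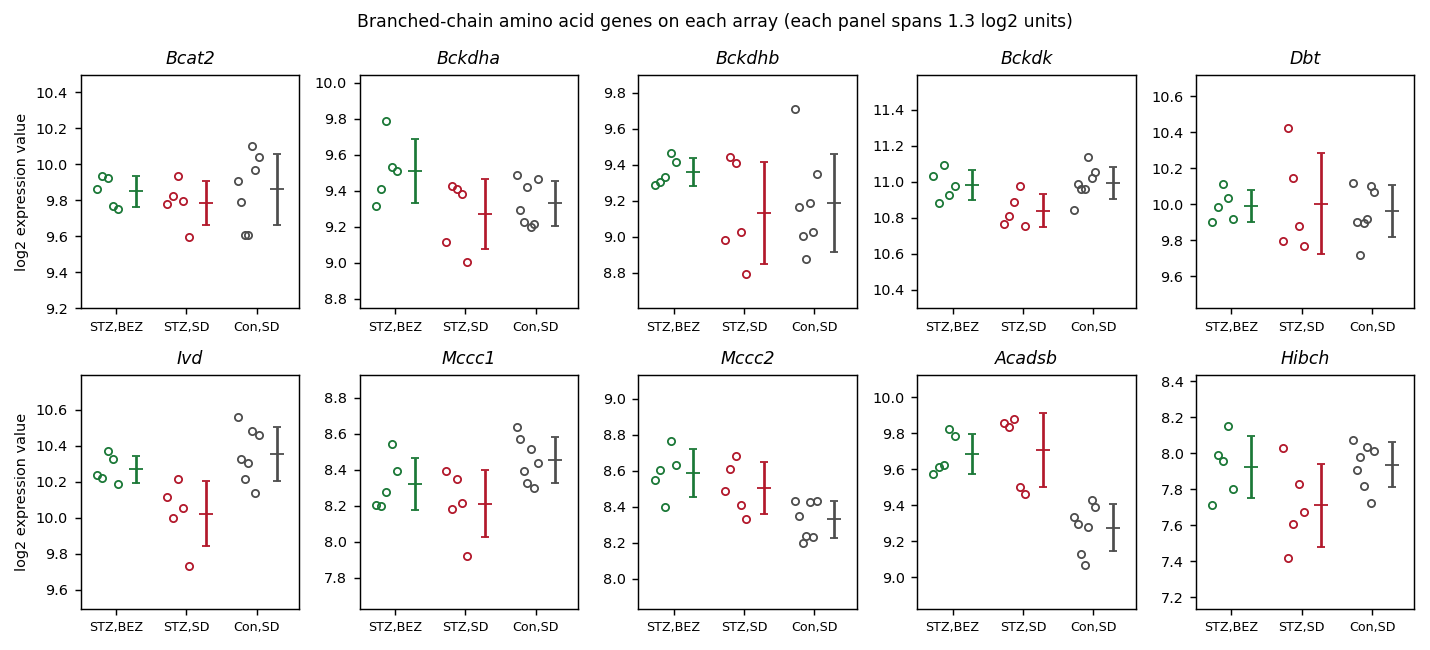
Log2 expression value of each of the 10 genes on each array (open circles, vertical axis, 1.3 log2 units per panel) in STZ,BEZ (n = 5), STZ,SD (n = 5) and Con,SD (n = 7), with the group mean ± SD beside the points. For Acadsb every STZ,BEZ and STZ,SD value, from 9.46 upwards, lay above the highest Con,SD value of 9.43, and for the other 9 genes the groups overlapped.

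Acadsb encodes the dehydrogenase that oxidises 2-methylbutyryl-CoA from isoleucine. Its values were 9.57, 9.61, 9.63, 9.82 and 9.78 in STZ,BEZ muscle and 9.86, 9.84, 9.88, 9.50 and 9.46 in STZ,SD muscle, against 9.07 to 9.43 with a median of 9.29 in Con,SD muscle. All 10 arrays of streptozotocin-injected mice lay above all 7 Con,SD arrays. In STZ,SD the gene rose by 0.43 ± 0.09, or 1.35-fold (9.71 ± 0.21 in STZ,SD, n = 5, and 9.28 ± 0.13 in Con,SD, n = 7, SD; limma, adjusted p = 0.00225). Groups that did not overlap were found for 8.3% of all genes in this comparison, 4.87% with STZ,SD higher. The call held in all 29 alternatives, with differences from 0.36 to 0.49. Within STZ,SD the values fell into a higher set of 3 arrays and a lower set of 2, arrays 4 and 5, and the same 2 arrays had the lowest slow-fibre levels of the group, 7.27 and 7.03, against 9.56 to 10.07 on the other 3. Array 5 was also the lowest STZ,SD array for every other member except Hibch. Slow-fibre levels of STZ,BEZ arrays 1 to 5 were 8.65, 10.44, 8.94, 8.76 and 9.46, in the order of the Acadsb values above. Con,SD arrays 1 to 7 had slow-fibre levels of 8.95, 7.29, 7.86, 9.40, 7.76, 6.98 and 9.57. Their Acadsb values were 9.34, 9.29, 9.13, 9.07, 9.28, 9.43 and 9.39. In a fit with the slow-fibre level as covariate, added once the data had been seen, the difference was 0.41 (adjusted p = 0.00346). The part of fibre type in the Acadsb values was otherwise not tested.

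In the leucine branch Ivd and Mccc1 fell in STZ,SD, and Mccc2 did not pass the test. Ivd, whose product oxidises isovaleryl-CoA in the step that parallels that of ACADSB, had values of 10.24, 10.22, 10.37, 10.32 and 10.19 in STZ,BEZ and 10.12, 10.00, 10.21, 10.06 and 9.73 in STZ,SD, against 10.14 to 10.56 with a median of 10.32 in Con,SD. STZ,SD arrays 2, 4, 5 and 1 lay below every Con,SD array and only array 3 overlapped with them. Ivd fell by 0.33 ± 0.08 in STZ,SD, 1.26-fold lower (limma, adjusted p = 0.01), and it was called in all 29 alternatives with values from -0.38 to -0.26. Con,SD array 1, with the high hepatocyte level, had the highest Ivd value, and without it the difference was -0.30 (adjusted p = 0.0168).

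Methylcrotonyl-CoA carboxylase takes the step after IVD in leucine breakdown, with the biotin-carrying subunit encoded by Mccc1 and the carboxyltransferase subunit by Mccc2. Mccc1 had values of 8.20, 8.20, 8.28, 8.54 and 8.39 in STZ,BEZ and 8.39, 8.18, 8.35, 8.22 and 7.92 in STZ,SD, against 8.30 to 8.64 with a median of 8.44 in Con,SD. It fell by 0.24 ± 0.09 in STZ,SD (limma, adjusted p = 0.0563), with 3 of the 5 STZ,SD arrays below all Con,SD arrays. That call was lost without STZ,SD array 2 (-0.24) or 5 (-0.17), without Con,SD arrays 1, 3 and 4 (-0.24) and with the hepatocyte level as a covariate (-0.20). Con,SD array 1 had the highest Mccc1 value here too, 8.64.

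Mccc2 had values of 8.55, 8.60, 8.40, 8.76 and 8.63 in STZ,BEZ and 8.49, 8.61, 8.68, 8.41 and 8.33 in STZ,SD, against 8.20 to 8.43 with a median of 8.35 in Con,SD. Its difference in STZ,SD was 0.17 ± 0.07 (95% interval 0.02 to 0.33; limma, adjusted p = 0.11), just short of the threshold, and it passed in 9 of 29 alternatives. Since both subunits belong to 1 enzyme, the difference of their log2 values was formed on each array, after the values had been seen and therefore without a test. Mccc2 minus Mccc1 was 0.34, 0.40, 0.12, 0.22 and 0.24 in STZ,BEZ and 0.09, 0.43, 0.33, 0.19 and 0.42 in STZ,SD, against -0.22 to -0.003 with a median of -0.09 in Con,SD. No array of the streptozotocin-injected mice overlapped with Con,SD in this quantity. Mccc1 and Mccc2 had already been seen to differ in opposite directions in STZ,SD, so a gap was favoured by the choice. The share of other gene pairs without overlap was not computed. Its level depends on the probes of both genes, so only its change between groups can be read.

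**Figure D2:**
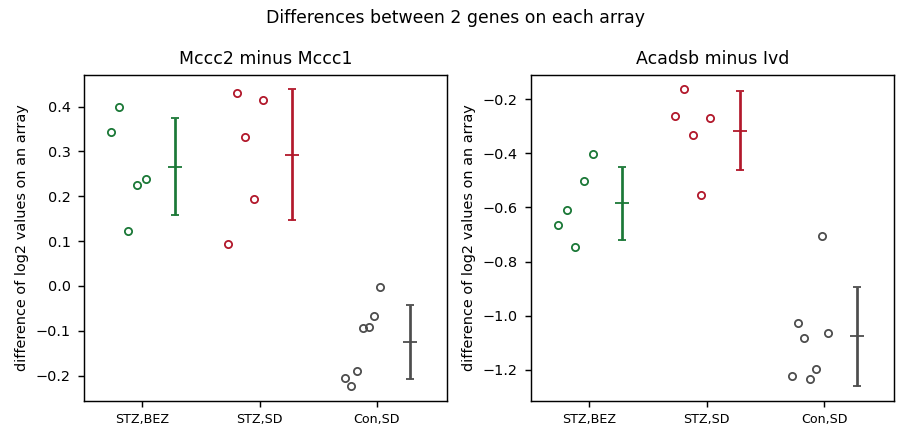
Difference between the log2 values of 2 genes on the same array (open circles, vertical axis) for Mccc2 minus Mccc1 and for Acadsb minus Ivd in STZ,BEZ (n = 5), STZ,SD (n = 5) and Con,SD (n = 7), with group mean ± SD. Mccc2 minus Mccc1 averaged 0.27 in STZ,BEZ, 0.29 in STZ,SD and -0.13 in Con,SD.

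The same was done for the related dehydrogenases ACADSB and IVD, a pair chosen as the member that rose most and the one that fell most in STZ,SD, so that a gap between these groups was fixed by the choice. Acadsb minus Ivd averaged -0.59 ± 0.14 in STZ,BEZ and -0.32 ± 0.15 in STZ,SD, against -1.08 ± 0.18 in Con,SD (SD, n = 5, 5 and 7). STZ,SD arrays, at -0.55 to -0.16, did not overlap with Con,SD arrays, at -1.24 to -0.71, while the lowest STZ,BEZ array, at -0.75, did.

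The promoters of these 4 genes, which differed in the direction of their values, are shown so that their sequence can be compared, each from the 150 bases before a transcription start in RefSeq (GRCm38.p6), 5′ to 3′ on the gene's strand. The starts used for Ivd and Mccc1 lie within the annotated gene, and the last 35 and 16 bases of their windows, which are inside it, are not shown. Capitals mark matches, on either strand, to a CCAAT box (CCAAT), a GC box (GGGCGG), or the half-site AGGTCA that nuclear receptors such as the PPARs recognise.
Acadsb, chr7:131410451-131410600, + strand: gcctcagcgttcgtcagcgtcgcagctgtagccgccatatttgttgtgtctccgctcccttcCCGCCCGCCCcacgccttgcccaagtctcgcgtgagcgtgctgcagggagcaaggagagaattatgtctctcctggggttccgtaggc
Ivd, chr2:118861844-118861958, + strand: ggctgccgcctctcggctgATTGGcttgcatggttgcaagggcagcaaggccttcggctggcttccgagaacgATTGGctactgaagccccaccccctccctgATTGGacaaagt
Mccc1, chr3:36000695-36000828, - strand: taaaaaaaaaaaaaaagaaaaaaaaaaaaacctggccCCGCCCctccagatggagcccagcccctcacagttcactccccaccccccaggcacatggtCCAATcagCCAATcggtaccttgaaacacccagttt
Mccc2, chr13:100015640-100015789, - strand: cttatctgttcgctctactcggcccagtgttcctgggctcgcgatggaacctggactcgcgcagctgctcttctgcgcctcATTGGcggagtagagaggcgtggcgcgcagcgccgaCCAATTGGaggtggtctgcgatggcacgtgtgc

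The Acadsb window held 2 overlapping GC boxes and 0 CCAAT boxes. The whole Ivd window held 4 CCAAT boxes, 3 of them in the part shown. That of Mccc1 held 3, 2 of them shown, with 1 GC box, and that of Mccc2 held 3, of which 2 overlap on opposite strands. A RefSeq promoter was matched for 9 of the 10 genes, and 5 of these had a CCAAT box and 4 a GC box, beside 24.5% and 28.6% of 32851 mouse promoter windows of this length. The 9 genes had 11 windows and were counted by gene, with a match in any window, whereas the shares are by window. A nuclear receptor half-site was found for 1 of the 9, Bckdhb, beside 8.6% of all windows, and a direct repeat of the half-site with 1 base between for 0 of 9, beside 0.03%. These are letter matches in a short window.

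Hibch, the hydrolase of the valine branch, had values of 7.71, 7.99, 7.96, 8.15 and 7.80 in STZ,BEZ and 8.03, 7.42, 7.61, 7.83 and 7.68 in STZ,SD, against 7.73 to 8.07 with a median of 7.98 in Con,SD. STZ,SD arrays 2, 3 and 5 lay below all Con,SD arrays, and array 1 was among the high ones. The difference in STZ,SD was -0.22 ± 0.10 (95% interval -0.43 to -0.02; limma, adjusted p = 0.117), and the gene passed the threshold without STZ,SD array 1 (-0.30) and in 4 other alternatives.

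For the kinase gene Bckdk the values were 11.03, 10.88, 11.10, 10.93 and 10.98 in STZ,BEZ and 10.77, 10.81, 10.89, 10.98 and 10.76 in STZ,SD, against 10.84 to 11.14 with a median of 10.99 in Con,SD. Bckdk fell by 0.15 ± 0.06 in STZ,SD, 1.11-fold lower (limma, adjusted p = 0.0769), which was the smallest called change among the members. Con,SD array 1 was the lowest control, and without it the difference was -0.18 (adjusted p = 0.0405). The call was lost when any of Con,SD arrays 5, 6 and 7 or STZ,SD arrays 1, 2, 3 and 5 was left out, at values from -0.17 to -0.13, and in 5 other alternatives. The phosphatase gene Ppm1k, which acts in the opposite sense, had 7.81 ± 0.46 in STZ,SD and 7.45 ± 0.24 in Con,SD (SD, n = 5 and 7), a difference of 0.36 ± 0.16 that did not pass the test (adjusted p = 0.143). It passed, among other alternatives, without STZ,SD array 5 (0.52) and without Con,SD array 1 (0.43).

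Genes of the shared first steps did not pass the test in STZ,SD. Bcat2 had values of 9.86, 9.93, 9.93, 9.77 and 9.75 in STZ,BEZ and 9.78, 9.82, 9.93, 9.80 and 9.59 in STZ,SD, against 9.61 to 10.10 with a median of 9.91 in Con,SD. Nearly all of its values in the injected mice lay inside the range of the controls. The difference of STZ,SD from Con,SD was -0.07, with a 95% interval of -0.26 to 0.11. Bckdha, the phosphorylated E1 subunit, had values of 9.31, 9.41, 9.78, 9.53 and 9.51 in STZ,BEZ and 9.11, 9.43, 9.41, 9.38 and 9.0 in STZ,SD, against 9.19 to 9.49 with a median of 9.29 in Con,SD. Here STZ,BEZ arrays 3, 4 and 5 were above every other array, and the interval of STZ,SD against Con,SD was -0.25 to 0.13.

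Bckdhb, the other E1 subunit, had values of 9.28, 9.30, 9.33, 9.47 and 9.42 in STZ,BEZ and 8.98, 9.44, 9.41, 9.03 and 8.79 in STZ,SD, against 8.88 to 9.71 with a median of 9.17 in Con,SD. The highest of all values was that of Con,SD array 1, 9.71, followed among the controls by 9.35. STZ,SD against Con,SD gave -0.06 with an interval of -0.32 to 0.21, and 0.03 without Con,SD array 1. Within STZ,SD, Bckdhb and Dbt had the widest spread of the members, with an SD of 0.28 each. Dbt, the acyltransferase core, had values of 9.90, 9.99, 10.11, 10.03 and 9.92 in STZ,BEZ and 9.80, 10.43, 10.15, 9.88 and 9.77 in STZ,SD, against 9.72 to 10.12 with a median of 9.92 in Con,SD. STZ,SD array 2 was the highest of all arrays for Dbt. The difference of STZ,SD was 0.04, with an interval of -0.17 to 0.26, and -0.06 without that array.

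**Figure D3:**
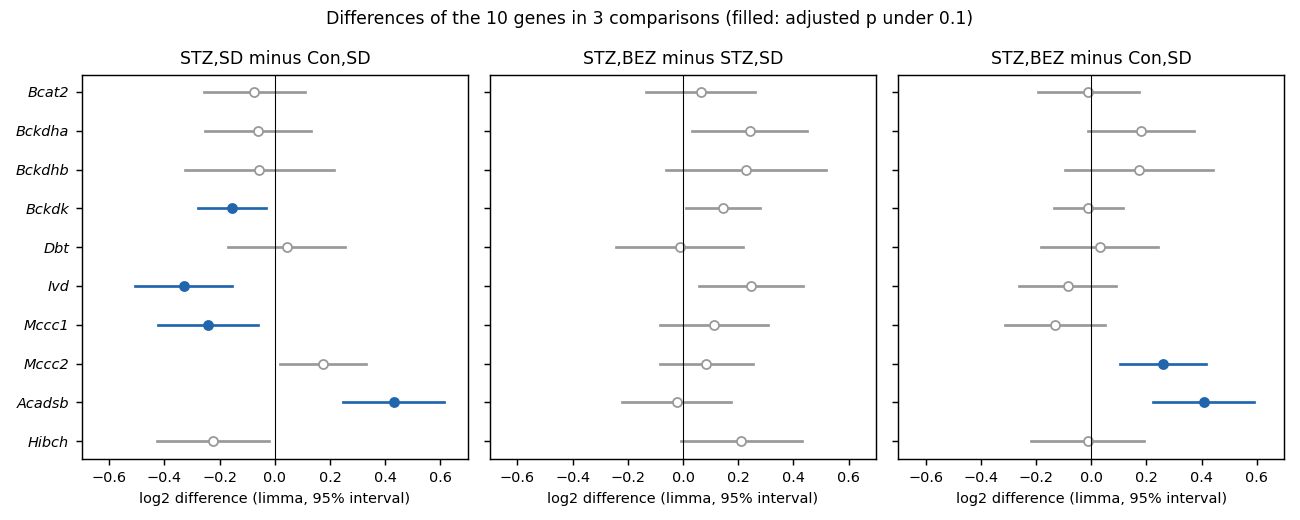
Log2 difference (points, horizontal axis) with its 95% interval from limma for the 10 genes in the 3 comparisons, filled where the adjusted p was under 0.1. STZ,SD minus Con,SD has 4 called genes, from Ivd at -0.33 to Acadsb at 0.43, STZ,BEZ minus STZ,SD has 0, and STZ,BEZ minus Con,SD has Mccc2 and Acadsb.

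The effect of bezafibrate in diabetic mice was addressed by setting STZ,BEZ against STZ,SD. None of the 10 genes was called by limma, where 0.0201% of all genes were, and 0 by significance analysis of microarrays (SAM). At an unadjusted p under 0.05 there were 3 of 10, Ivd (0.25 ± 0.09), Bckdha (0.24 ± 0.10) and Bckdk (0.14 ± 0.06), all with higher values in STZ,BEZ, where 5.69% of all genes, 3.55% with higher values, passed that limit. Their adjusted p were 0.778, 0.829 and 0.87. The differences of 8 of the 10 members were above 0, beside 10117 of 19938 genes, and the median was 0.13, beside 0.002 over all genes. Hibch had 0.21 ± 0.10 and Bckdhb 0.23 ± 0.14. The exceptions were Dbt at -0.01 (interval -0.24 to 0.22) and Acadsb at -0.02 (interval -0.22 to 0.17). The interval of Bckdhb ran from -0.06 to 0.52. These differences share the STZ,SD arrays with the previous comparison, so a low value on those arrays enters both.

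STZ,BEZ was also set against Con,SD, to see where treated diabetic muscle stood. Acadsb was higher by 0.41 ± 0.09 (1.33-fold; 9.68 ± 0.11 in STZ,BEZ, n = 5, and 9.28 ± 0.13 in Con,SD, n = 7, SD; limma, adjusted p = 0.00445), with no overlap between the groups, as for 8.51% of all genes, 6.01% with STZ,BEZ higher. Mccc2 was higher by 0.26 ± 0.07 (1.2-fold; 8.59 ± 0.13 in STZ,BEZ and 8.33 ± 0.10 in Con,SD; adjusted p = 0.0252), and 4 of the 5 STZ,BEZ arrays lay above every Con,SD array. These were 2 members called of 10, where 21.6% of all genes were called, 13.1% higher and 8.45% lower. Both were called in all 29 alternatives. The members lower in STZ,SD had differences of -0.09 ± 0.08 for Ivd, -0.13 ± 0.09 for Mccc1 and -0.01 ± 0.06 for Bckdk in STZ,BEZ against Con,SD, none of which passed the test, and the test of the change between the diabetic groups is that of STZ,BEZ with STZ,SD given above. Bckdhb, at 0.17 ± 0.13, passed with the hepatocyte level as a covariate (0.38, adjusted p = 0.0455) and in no other alternative.

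Of 13 further genes of branched-chain amino acid breakdown that were measured, 5 fell and 0 rose in STZ,SD against Con,SD, and 7 of the 13 differences were below 0. Over all genes 11.9% fell and 13.9% rose, and 10426 of 19938 differences were below 0. Hsd17b10, the dehydrogenase after ACADSB in isoleucine breakdown, fell by 0.78 ± 0.06 (10.48 ± 0.12 in STZ,SD and 11.26 ± 0.11 in Con,SD, SD, n = 5 and 7; limma, adjusted p = 9.01e-07) without overlap between groups. Acad8, the dehydrogenase of the valine branch and a relative of ACADSB, fell by 0.48 ± 0.09 (adjusted p = 0.000912). Acat1, the thiolase that ends isoleucine breakdown, fell by 0.26 ± 0.07. Hibadh, the enzyme after HIBCH, fell by 0.24 ± 0.08, but with the mean of its probe sets the value was -0.08 and not called. Dld, the E3 subunit, at -0.14 ± 0.09, Slc25a44, the mitochondrial carrier of branched-chain amino acids, at 0.12 ± 0.08, and the cytosolic aminotransferase gene Bcat1, at -0.0003 ± 0.06, did not pass the test. Against Con,SD, STZ,BEZ had 1 of the 13 genes higher, Aldh6a1 of the valine branch (0.31 ± 0.07), and 4 lower, with Hsd17b10 at -0.68 ± 0.06 and Acad8 at -0.38 ± 0.09. Over all genes 13.1% were higher and 8.45% lower in that comparison.

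Isoleucine and valine end as propionyl-CoA, which is converted to succinyl-CoA. Of 7 genes of that route 4 fell and 0 rose in STZ,SD against Con,SD, beside 11.9% and 13.9% of all genes, with a median of -0.32. Those that fell were Mmab (-0.59 ± 0.09) and Mmaa (-0.32 ± 0.07), which handle the cobalamin cofactor of methylmalonyl-CoA mutase, the epimerase gene Mcee (-0.42 ± 0.05) and the propionyl-CoA carboxylase subunit gene Pccb (-0.33 ± 0.09). The mutase gene itself, Mmut, was higher by 0.33 ± 0.07 in STZ,BEZ against Con,SD (limma, adjusted p = 0.00388), where 3 genes of the route were lower. Over all genes 13.1% were higher and 8.45% lower there.

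Of 8 genes of branched-chain amino acid transport and sensing 5 rose and 0 fell in STZ,SD against Con,SD, with a median of 0.23. Over all genes 13.9% rose and 11.9% fell. Slc43a1, a transporter of large neutral amino acids, rose by 1.14 ± 0.20 (9.89 ± 0.62 in STZ,SD and 8.75 ± 0.27 in Con,SD, SD, n = 5 and 7; limma, adjusted p = 0.000818). Its relative Slc43a2 rose by 0.44 ± 0.11 and Slc3a2, the partner chain of the leucine transporter SLC7A5, by 0.24 ± 0.08, a call lost without Con,SD arrays 1, 3 and 4 (0.14). Sesn1, of the sestrin family that restrains mTORC1, rose by 1.45 ± 0.22. Against Con,SD, 2 of the 8 were higher in STZ,BEZ, beside 13.1% of all genes, namely Slc43a1 (0.96 ± 0.20) and Sesn1 (0.92 ± 0.22). Among 6 genes of enzymes that take up or pass on amino nitrogen, the alanine aminotransferase gene Gpt fell by 0.28 ± 0.09, Got1 fell by 0.23 ± 0.09 and the glutamine synthetase gene Glul rose by 0.61 ± 0.23 in STZ,SD, and 0 were called in STZ,BEZ against Con,SD. Over all genes 25.8% were called in STZ,SD and 21.6% in STZ,BEZ, each against Con,SD. The call of Gpt was lost without STZ,SD array 2 (-0.24), without Con,SD arrays 1, 3 and 4 (-0.18) and with the hepatocyte covariate (-0.22). That of Got1 was lost without any 1 of Con,SD arrays 1, 5 and 7 and STZ,SD arrays 1, 4 and 5 (-0.22 to -0.17) and, among other alternatives, with a second quantile normalization (-0.14), and that of Glul without any 1 of Con,SD arrays 3, 4 and 5 and STZ,SD arrays 1, 2 and 3 (0.41 to 0.62) and, among other alternatives, with array weights (0.47). Klf15, a transcription factor known in mouse muscle to promote Bcat2 expression, rose by 0.88 ± 0.18 in STZ,SD (limma, adjusted p = 0.00203) and was higher by 0.75 ± 0.18 in STZ,BEZ against Con,SD (adjusted p = 0.00796), beside the Bcat2 differences of -0.07 and -0.01.

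**Figure D4:**
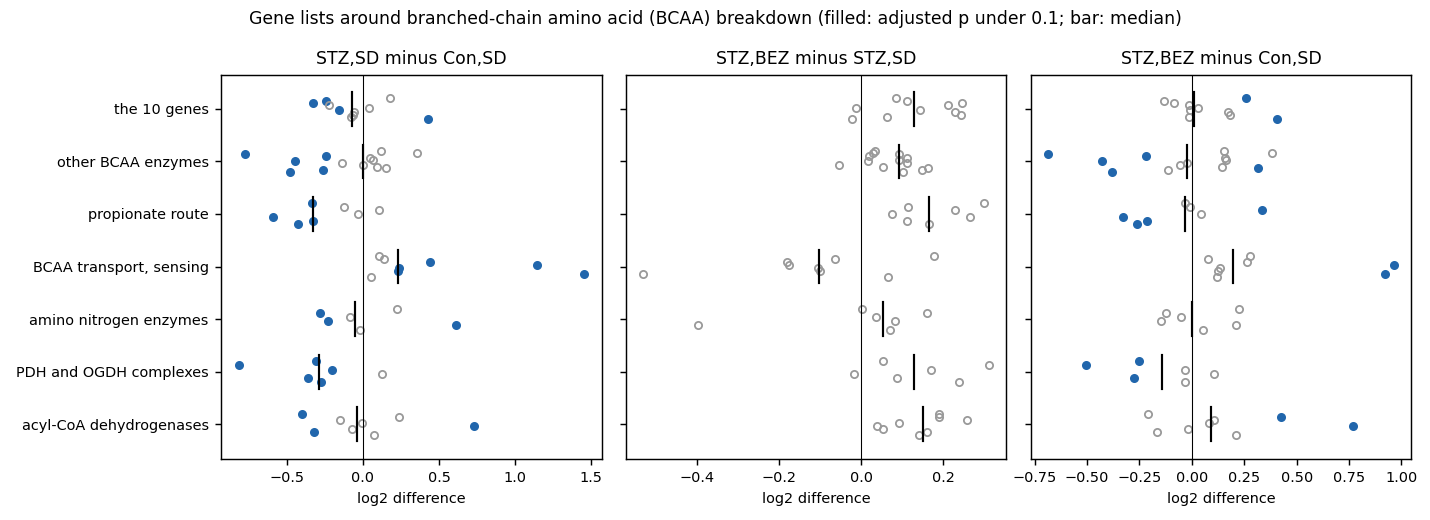
Log2 difference of each gene (points, horizontal axis, filled where adjusted p was under 0.1) in 7 gene lists around branched-chain amino acid breakdown, with the list median (bar), in the 3 comparisons. In STZ,SD minus Con,SD the medians ran from -0.32 for the propionate route to 0.23 for transport and sensing, with -0.07 for the 10 genes.

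BCKDH was set beside the complexes built on the same plan. Of 6 genes of the pyruvate and 2-oxoglutarate dehydrogenase complexes 5 fell and 0 rose in STZ,SD against Con,SD, beside 11.9% and 13.9% of all genes, with a median of -0.29. Among these 6 genes Pdhb, the E1 beta subunit of pyruvate dehydrogenase and the counterpart of Bckdhb, fell by 0.82 ± 0.11 and Dlat, the counterpart of Dbt, by 0.27 ± 0.07, whereas Bckdhb had -0.06 ± 0.13 and Dbt 0.04 ± 0.10. Of 8 further acyl-CoA dehydrogenases 1 rose, the long-chain enzyme gene Acadl (0.73 ± 0.16), and 2 fell, Acad11 (-0.32 ± 0.07) and Gcdh (-0.40 ± 0.16), with a median of -0.04. The 1 gene higher was near the share over all genes, 13.9%, and the 2 genes lower were above the share of 11.9%. The call of Gcdh was lost without any 1 of Con,SD arrays 1, 2, 5 and 7, STZ,SD arrays 1, 3, 4 and 5 and STZ,BEZ arrays 1, 2, 3 and 4, at values from -0.44 to -0.28, and, among other alternatives, with the hepatocyte covariate (-0.22). Against Con,SD, STZ,BEZ had 2 of the 8 acyl-CoA dehydrogenases higher and 0 lower. They were Acadl (0.77 ± 0.16) and the very-long-chain enzyme gene Acadvl (0.425 ± 0.098), without overlap between groups, as for Acadsb. Of the 6 complex genes 3 were lower and 0 higher, Pdhb (-0.505 ± 0.11), Dlst (-0.28 ± 0.06) and Pdhx (-0.25 ± 0.09). The Pdhx call was lost in 5 of 17 fits without 1 array. Over all genes 13.1% were higher and 8.45% lower. The difference between these lists was not tested. In STZ,BEZ against STZ,SD 0 genes of these lists were called, and values were above 0 for 12 of the 13 further pathway genes, 7 of the 7 propionate genes, 5 of the 6 complex genes and 8 of the 8 acyl-CoA dehydrogenases, beside 8 of the 10 members and 10117 of 19938 genes. The same held for 5 of the 6 amino nitrogen genes. Of the 8 transport and sensing genes 2 were above 0 and 6 below, with a median of -0.10, and 0 of either list were called. All these differences share the same STZ,SD arrays, so the genes are not separate observations.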

How the data were processed

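The deposited table holds log2 expression values of 17 Affymetrix Mouse Gene 1.0 ST arrays, which the authors made from muscle RNA with RMA in Affymetrix Expression Console 1.2, and the values were used as deposited. RMA corrects the background, forces all arrays to 1 distribution and summarises probes, so values compare a probe set between arrays and not genes with each other. The platform annotation gave 1 gene symbol to 21789 of 35556 probe sets, several to 1621 and none to 12146. The probe set with the highest mean was kept per gene, which left 19938 genes. Differences came from limma 3.58.1 in R 4.3.3, with 1 fit over all arrays, and p-values were adjusted by the Benjamini-Hochberg method over all genes. The false discovery rate of 10% follows the study, which used SAM. The scripts were tested on simulated data. Replicates were numbered as biological replicates, and their number limits the precision.

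The 10 genes were named whatever their values. Of each other list up to 4 genes with the smallest adjusted p per comparison were named, and always Ppm1k, Dld, Bcat1, Slc25a44 and Klf15. The members and lists were chosen with earlier results of these data known. Of 134 listed genes 132 were matched, 1 by a synonym, and the rest were not analysed here. Alternatives were arrays centred on their medians, quantile normalization applied again, a filter on the 30% dimmest genes, other uses of probe sets, array weights, the 2 groups alone, SAM with 100 permutations, a replicate block, hepatocyte or slow-fibre levels as a covariate, and leaving out arrays.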

Additional observations from a re-analysis of the deposited data

Results flagged for a closer look

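Of 48 groups of values examined for a single distant array, 2 were marked, where chance marks about 1 in 20. The mean level of 8 testis markers was 8.67 on Con,SD array 1, far above the other 6 Con,SD arrays. Acadsb minus Ivd was -0.71 on Con,SD array 6, the highest of its group, where Acadsb had its highest (9.43) and Ivd its lowest (10.14) value among the controls.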

How the results depend on the processing

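Across 29 alternatives Acadsb in both comparisons with Con,SD, Ivd in STZ,SD and Mccc2 in STZ,BEZ kept their calls, Mccc1 kept its call in 25 and Bckdk in 17, and 0 members were called in STZ,BEZ against STZ,SD. Several alternatives cannot change a member's difference, only its adjusted p. They are the other uses of probe sets, the dim-gene filter, the 2 groups alone, SAM and leaving out an array of the group not compared. Leaving out 1 array gave 2 to 5 members called in STZ,SD against Con,SD, with 2, Ivd and Acadsb, without STZ,SD array 2. Over all genes it gave 4 to 6 calls in STZ,BEZ against STZ,SD (4 with every array), 3814 to 5430 in STZ,SD against Con,SD (5142) and 2998 to 4712 in STZ,BEZ against Con,SD (4298). With every probe set tested the counts against Con,SD were 8673 and 7408, of more features. In STZ,BEZ against STZ,SD array weights gave 11, the hepatocyte covariate 12, the slow-fibre covariate 7, the fit without Con,SD arrays 1, 3 and 4 gave 7, the 2 groups alone 8 and SAM 20, and the cause was not tested.

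The replicate block used numbers that pair no mice by the labels. Same-numbered arrays did not deviate together (correlations from -0.24 to 0.08, 0 of 15 above 0.1). With the block 3, 0 and 2 members and 4598, 5 and 3825 genes were called in STZ,SD against Con,SD, STZ,BEZ against STZ,SD and STZ,BEZ against Con,SD. In the last, Bcat2 was 0.046 and Bckdk 0.0061 with the block.

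Changes of sign concerned values near 0 that were not called, apart from Hibadh in STZ,BEZ against Con,SD (0.0004 with the mean of its probe sets). In STZ,SD against Con,SD the hepatocyte covariate gave 0.076 for Bckdhb, and Bcat1 was 0.0147 with a second quantile normalization, 0.0021 with array weights, 0.0016 with the hepatocyte and 0.0196 with the slow-fibre covariate. For STZ,BEZ against STZ,SD, Dbt was 0.0187 and Acadsb 0.0065 with array weights, and Dbt 0.0064 with the hepatocyte covariate. In STZ,BEZ against Con,SD the hepatocyte covariate gave 0.0082 for Bcat2 and 0.014 for Hibch, Bckdk was 0.0228 with a second quantile normalization and 0.0155 with the slow-fibre covariate, Dbt was -0.0237 with the slow-fibre covariate, and without Con,SD arrays 1, 3 and 4 Dbt was -0.008 and Hibch 0.003. Leaving out 1 array gave, in STZ,SD against Con,SD, -0.10 to 0.0039 for Bckdha, -0.134 to 0.0308 for Bckdhb, -0.0628 to 0.102 for Dbt and -0.0396 to 0.0471 for Bcat1. For STZ,BEZ against STZ,SD it gave -0.0851 to 0.0201 for Acadsb and -0.0714 to 0.0931 for Dbt. For STZ,BEZ against Con,SD it gave -0.0537 to 0.0294 for Bcat2, -0.0386 to 0.0141 for Bckdk, -0.0105 to 0.0563 for Dbt and -0.0708 to 0.0395 for Hibch.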
